A study of Mus musculus with 7 samples.

Results

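The genes of the Wnt pathway described here are a pair of ligands (Wnt5a and Wnt16), 6 secreted inhibitors or inhibitor relatives (Sfrp1, Sfrp2, Sfrp4, Frzb, Dkk3 and Wif1) and 2 target genes (Axin2 and Lef1). They are a list of symbols chosen with earlier results of these data known, by a rule that uses no measured value, and are 10 of the 56854 gene identifiers listed in every library's file. All 10 passed the filter on low counts. They were measured by RNA sequencing of whole shoulder joints, 1 library per mouse, in wild-type mice (n = 3) and in Tnc-/- mice (n = 4), which lack the matrix glycoprotein Tenascin C. Every mouse of both groups had its left supraspinatus tendon, one of the rotator cuff tendons, surgically repaired 2 weeks before the joint was taken, so both groups show healing joints and unoperated joints were not analysed here. The labels give neither strain, age nor sex, and do not describe the Tnc allele. In whole joints, fewer cells of a type and less RNA per cell cannot be told apart.

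Wnt proteins are secreted lipid-modified ligands that bind Frizzled receptors, alone or with the co-receptors Lrp5 and Lrp6. In the canonical branch this spares beta-catenin from destruction, and beta-catenin joins transcription factors of the TCF/LEF family to switch on target genes such as Axin2, which feeds back to dampen the signal. Secreted Frizzled-related proteins (Sfrp1, Sfrp2, Sfrp4 and Frzb) and Wif1 bind Wnt ligands outside the cell. In joints the pathway is known for roles in cartilage, bone and the joint lining, and Frzb and Wif1 are known as products of cartilage cells.

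The libraries held 13464057 to 18503833 gene counts in wild type and 19250322 to 28191101 in Tnc-/-. Levels below are CPM, a gene's counts relative to its library's total, scaled between libraries by edgeR's TMM method. Tnc itself stood at 437, 292 and 327 CPM in the wild type (libraries 1 to 3) and at 33.4, 38.9, 39.9 and 55.0 CPM in Tnc-/- (libraries 1 to 4), so it was low in every library labelled Tnc-/-, though some reads were present in each. Wild-type libraries 2 and 3 stood apart. Across tested genes, wild-type library 1 had a Pearson r of 0.96 to 0.964 with the Tnc-/- libraries and of 0.803 and 0.858 with wild-type libraries 2 and 3 (genes are not independent replicates). The summed level of 1514 olfactory and vomeronasal receptor genes, known from the nasal lining, reached 81.6, 1410 and 998 CPM in the wild type (libraries 1 to 3) and 32.1 to 39.5 CPM in Tnc-/-. Unlike the other levels, this sum is relative to library totals without TMM scaling. The identifier lists differed between the genotypes, whose files hence came from separate counting runs, and an effect of the run cannot be told apart from one of genotype. Of the markers that define tendon and joint tissue, the tendon list summed to 2844 to 4696 CPM, with 7 of its 8 genes detected in every library (Tnmd at 182 to 361 CPM) and 1 of 7 tested, Mkx, called lower. The tendon factor Scx and the cartilage matrix gene Chad had 0 counts in all 7 libraries.

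Sequences just before the transcription start are shown for Frzb, called lower with groups that did not overlap, and for the targets Axin2 and Lef1, whose promoters are read by TCF/LEF factors. They are the 250 bases before a start site on GRCm38.p6, taken from RefSeq, whose table held 6 of the 10 genes (Wnt16, Sfrp2, Frzb, Wif1, Axin2 and Lef1) in 9 windows. Capitals mark a match to the TCF/LEF core, searched on both strands. It was spelled CTTTGAA in the first form. The second form was CTTTGAT, with another last base. The remaining forms had T before the last base and were CTTTGTA and, ending in the other base, CTTTGTT.
Frzb (chr2:80447397-80447646, minus strand): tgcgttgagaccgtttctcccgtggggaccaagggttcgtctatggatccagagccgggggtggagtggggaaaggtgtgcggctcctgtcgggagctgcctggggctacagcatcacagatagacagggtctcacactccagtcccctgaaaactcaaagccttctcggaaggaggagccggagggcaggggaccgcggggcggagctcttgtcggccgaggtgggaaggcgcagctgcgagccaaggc
Axin2 (chr11:108920099-108920348, plus strand): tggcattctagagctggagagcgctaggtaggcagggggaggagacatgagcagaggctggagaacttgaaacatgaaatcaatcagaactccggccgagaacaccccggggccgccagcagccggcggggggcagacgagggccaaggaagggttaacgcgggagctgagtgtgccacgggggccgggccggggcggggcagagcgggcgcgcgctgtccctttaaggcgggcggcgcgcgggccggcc
Lef1, listed start 1 (chr3:131110047-131110296, plus strand): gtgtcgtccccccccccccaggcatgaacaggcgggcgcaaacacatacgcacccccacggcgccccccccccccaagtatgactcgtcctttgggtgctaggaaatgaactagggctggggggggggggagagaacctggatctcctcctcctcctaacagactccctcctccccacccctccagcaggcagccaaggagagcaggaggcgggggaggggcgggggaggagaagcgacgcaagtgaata
Lef1, listed start 4 (chr3:131156044-131156293, plus strand): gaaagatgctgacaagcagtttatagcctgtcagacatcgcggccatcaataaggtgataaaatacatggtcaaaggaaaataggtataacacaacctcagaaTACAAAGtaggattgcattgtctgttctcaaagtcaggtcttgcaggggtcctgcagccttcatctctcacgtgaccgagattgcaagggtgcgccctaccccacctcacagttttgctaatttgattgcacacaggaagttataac
A match stood in 1 of the 9 windows, that of Lef1 start 4, as CTTTGTA on the strand opposite the gene, 147 to 141 bases before the start. Of all 32851 windows of the same length in the table, 14.8% held a match. The windows of Frzb, Axin2 and Lef1 start 1 were rich in G and C (64.4, 69.2 and 66.4%), that of Lef1 start 4 less so (44.8%).

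Expression of the 10 genes was compared between the genotypes to ask whether the Wnt pathway of the healing joint differed in the absence of Tenascin C. Frzb and Lef1 were lower in Tnc-/- past the threshold (edgeR quasi-likelihood test, adjusted p under 0.05), and none of the 10 was higher. Frzb differed by a like amount whichever wild-type libraries were used, whereas the difference in Lef1 was seen against wild-type libraries 2 and 3 and not against library 1. The background was high: of 17791 genes tested, 29.0% were called, 18.7% lower and 10.3% higher in Tnc-/-, so 2 of 10 called lower is close to the share among all genes. The median log2 fold change of the 10 genes was -0.38, against -9.0e-04 over all genes tested. In 8 of the 10 the fitted fold change was below 0, as it was in 50.05% of all genes.

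How many of the 10 were called depended on the fit. Without wild-type library 1 both calls remained, where 64.2% of genes were called (39.9% lower, 24.3% higher). DESeq2 also called Frzb and Lef1, with 35.1% of genes called (22.9% lower, 12.3% higher). With replicate number as a block, which leaves out Tnc-/- library 4, only Frzb was called, with 9.74% of genes called (5.38% lower, 4.37% higher). Without that library and with no block, Frzb was also the only one of the 10 called, with 2001 of 17580 genes lower and 903 higher. None of the 10 was called against wild-type library 1 alone (4.45% of genes called, 1.92% lower and 2.53% higher), with limma voom (5.64%, 1.55% lower and 4.09% higher) or with the receptor gene sum as a covariate (2.46%, 1.3% lower and 1.16% higher). The Frzb fold change was no smaller in those fits, at -0.94, -0.98 and -1.03 on the log2 scale (adjusted p of 0.106 in edgeR, 0.052 in limma and 0.191 in edgeR). The fit on wild-type library 1 alone assumes that this library varies like the Tnc-/- libraries. The receptor gene sum was higher in every wild-type library than in any Tnc-/- library. The covariate fit hence cannot fully separate that sum from genotype.

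**Figure D1:**
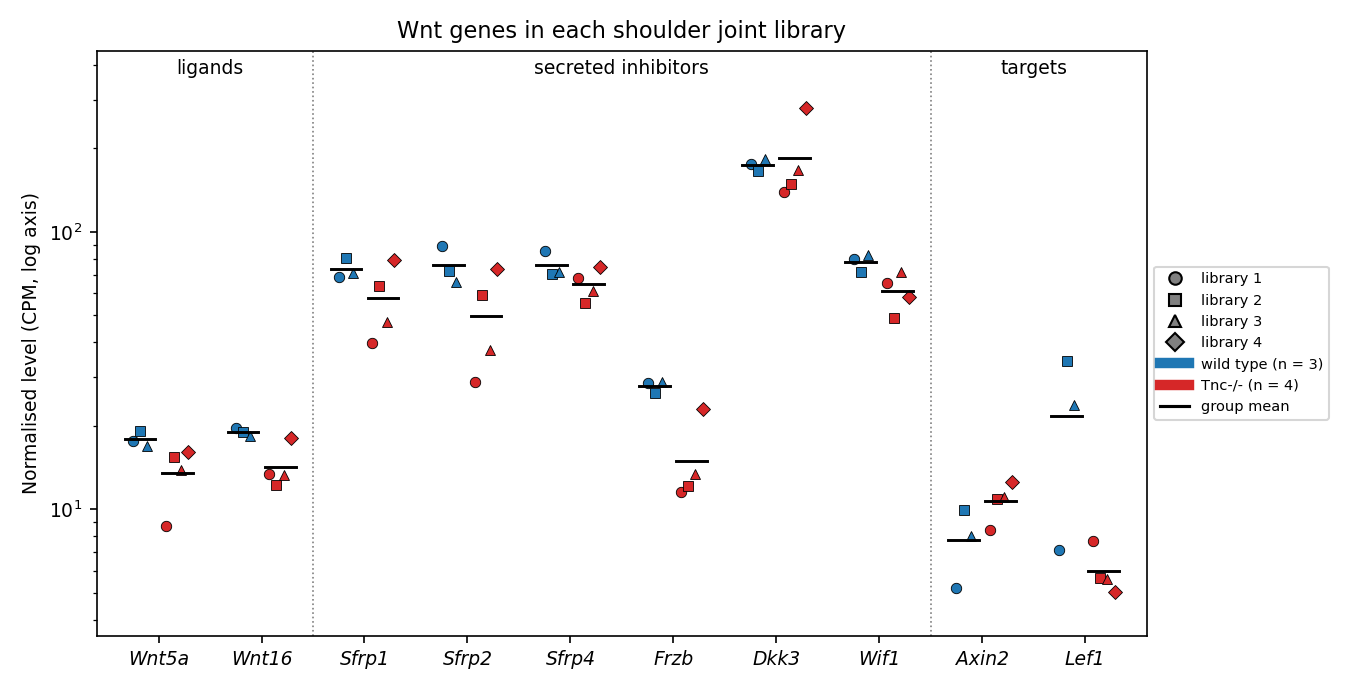
Normalised level (CPM, log axis) of the 10 Wnt genes in each library, with wild type (n = 3) in blue, Tnc-/- (n = 4) in red, a marker shape per library and a black line at each group mean. The wild-type points lie close together for every gene except Axin2 and Lef1, and Frzb shows a clear gap between the groups (26.2 to 28.8 against 11.5 to 22.9 CPM).

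The ligands Wnt5a and Wnt16 lay lower in every Tnc-/- library than in any wild-type library, without passing the threshold. Wnt5a (ENSMUSG00000021994), a ligand best known for non-canonical signalling, measured 17.6, 19.1 and 16.9 CPM in the wild type (libraries 1 to 3) and 8.69, 15.5, 13.8 and 16.1 CPM in Tnc-/- (libraries 1 to 4). Tnc-/- library 1 was lowest by far and the other Tnc-/- libraries came close to the wild type. On the log2 scale Wnt5a differed by -0.40 (SE 0.25; edgeR, adjusted p = 0.242), and by -0.26 without Tnc-/- library 1 (SE 0.20; edgeR, adjusted p = 0.395). Wnt16 (ENSMUSG00000029671), a ligand expressed in bone and joint tissue, was at 19.6, 19.0 and 18.4 CPM in wild type and at 13.4, 12.2, 13.3 and 17.99 CPM in Tnc-/-. Here Tnc-/- library 4 almost reached the wild type, and the other Tnc-/- libraries were alike. The fold change of Wnt16 on the log2 scale was -0.41 (SE 0.20; edgeR, adjusted p = 0.144). Groups that do not overlap in this direction were seen in 4 of the 10 genes (Wnt5a, Wnt16, Frzb and Wif1) and in 17.4% of all genes tested.

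Frzb (ENSMUSG00000027004), also called Sfrp3, fell to 53.8% of its wild-type mean in Tnc-/-. Its levels were 28.6, 26.2 and 28.8 CPM in the wild type (libraries 1 to 3) and 11.5, 12.1, 13.4 and 22.9 CPM in Tnc-/- (libraries 1 to 4). The wild-type libraries were nearly equal, Tnc-/- libraries 1 to 3 were far below them, and Tnc-/- library 4 lay between. Means were 27.9 ± 1.404 CPM (SD, n = 3) for wild type and 14.98 ± 5.34 CPM (SD, n = 4) for Tnc-/-. Frzb differed by -0.90 on the log2 scale (SE 0.26; edgeR, adjusted p = 0.0313). With wild-type library 1 as the only wild-type library it was -0.94 (SE 0.32; edgeR, adjusted p = 0.106) and with libraries 2 and 3 as the only ones it was -0.79 (SE 0.26; adjusted p = 0.0175), where far more genes were called, as given above. The size held but the call did not: it was lost when Tnc-/- library 1, 2 or 3 or wild-type library 2 or 3 was left out, with edgeR adjusted p of 0.0776, 0.0836, 0.0917, 0.0649 and 0.102 and log2 fold changes of -0.81, -0.81, -0.85, -0.93 and -0.87.

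Of the 10 genes, the other secreted Frizzled-related ones (Sfrp1, Sfrp2 and Sfrp4) were below the wild-type mean in most Tnc-/- libraries, with groups that overlapped and no call. Sfrp2 (ENSMUSG00000027996), a marker of fibroblasts, varied most of the inhibitors: 89.2, 72.1 and 65.7 CPM in wild type and 28.7, 59.4, 37.5 and 73.7 CPM in Tnc-/-. Tnc-/- libraries 1 and 3 were low and library 4 lay within the wild-type range. For Sfrp2 the log2 fold change was -0.60 (SE 0.30; edgeR, adjusted p = 0.161). It was -0.85 against wild-type library 1 alone and -0.38 without that library (edgeR, adjusted p = 0.293 and 0.258). Sfrp1 (ENSMUSG00000031548) followed the same order of libraries within Tnc-/-, at 39.8, 63.8, 47.5 and 79.3 CPM, against 69.0, 80.2 and 71.3 CPM in wild type. Its log2 fold change was -0.35 (SE 0.22; edgeR, adjusted p = 0.264), -0.23 without Tnc-/- library 1 and -0.55 without Tnc-/- library 4 (edgeR, adjusted p = 0.443 and 0.0889). Sfrp4 (ENSMUSG00000021319), a Frizzled-related protein of bone and connective tissue, was the most even of the family, at 85.2, 70.8 and 71.7 CPM in wild type and 68.2, 55.5, 61.0 and 75.0 CPM in Tnc-/-. The difference in Sfrp4 was -0.23 on the log2 scale (SE 0.14, edgeR, adjusted p = 0.257) and -0.041 (SE 0.15, edgeR, adjusted p = 0.822) when wild-type library 1 was left out. It was -0.40 against wild-type library 1 alone and -0.48 with the receptor gene sum as a covariate. An antisense gene, Gm26771, overlaps 16.1% of the exons of Sfrp2 in GENCODE M21. It had 0 to 59 counts per library, and its part in the Sfrp2 counts was not tested.

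Wif1 (ENSMUSG00000020218), which binds Wnt ligands directly, measured 79.7, 71.7 and 82.4 CPM in the wild type (libraries 1 to 3) and 65.3, 49.1, 71.55 and 58.3 CPM in Tnc-/- (libraries 1 to 4). The groups did not overlap, but Tnc-/- library 3 came very close to wild-type library 2. For Wif1 the log2 fold change was -0.35 (SE 0.15; edgeR, adjusted p = 0.104). Dkk3 (ENSMUSG00000030772), a relative of the Dickkopf inhibitors whose action on Wnt signalling is less settled than theirs, did not follow the other inhibitors. It was at 176, 165.9 and 183 CPM in wild type and at 139.7, 149, 168 and 280.4 CPM in Tnc-/-, so that Tnc-/- library 4 was the highest of the 7 and Tnc-/- libraries 1 and 2 the lowest. Dkk3 differed by 0.075 on the log2 scale (SE 0.24; edgeR, adjusted p = 0.84), and without Tnc-/- library 4 it turned to -0.20 (SE 0.13; edgeR, adjusted p = 0.317).

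The targets had fold changes of opposite sign, and only Lef1 passed the test. Lef1 (ENSMUSG00000027985), the transcription factor that is itself a Wnt target, measured 7.14, 34.3 and 23.7 CPM in the wild type (libraries 1 to 3) and 7.69, 5.63, 5.60 and 5.02 CPM in Tnc-/- (libraries 1 to 4). Wild-type library 1 lay inside the range of Tnc-/-, while wild-type libraries 2 and 3 were several times higher. Lef1 differed by -1.86 on the log2 scale (SE 0.46; edgeR, adjusted p = 0.0188), with means of 21.7 ± 13.7 CPM (SD, n = 3) for wild type and 5.99 ± 1.17 CPM (SD, n = 4) for Tnc-/-. With wild-type library 1 alone it was -0.25 (SE 0.32; edgeR, adjusted p = 0.658), and with libraries 2 and 3 alone it was -2.18 (SE 0.24; adjusted p = 6.553e-06). The call was also lost on leaving out either of wild-type libraries 2 and 3, or any of Tnc-/- libraries 2 to 4, in that order (edgeR, adjusted p of 0.0761, 0.0726, 0.0564, 0.0606 and 0.061), with log2 fold changes of -1.36, -1.78, -1.83, -1.83 and -1.78. Wild-type libraries 2 and 3 are the ones with the high receptor gene sum, and with that sum as a covariate the fold change of Lef1 was 0.40 (SE 0.37, edgeR, adjusted p = 0.619). That fit cannot fully separate the sum from genotype, as the sum was higher in every wild-type library than in any Tnc-/- library. Lef1 is also known from hair follicles. The 10 markers of epidermis and hair follicle had a summed level of 12.6, 47.7 and 41.9 CPM in the wild type (libraries 1 to 3) and of 7.84 to 12.9 CPM in Tnc-/-, with Krt15, Krt17 and Krt71 at 0 in all 7 libraries and Krt5, Krt14 and Krt1 at no more than 0.698 CPM in any. Trp63 (9.34, 32.2 and 26.9 CPM in wild type, 4.82 to 9.69 CPM in Tnc-/-) made up most of that sum and was called lower, as was Dsg3. Krt25, which did not pass the filter on low counts, was at 0, 5.12 and 6.74 CPM in wild type and 0 to 0.224 CPM in Tnc-/-. The remaining tested marker, Krt10, had a log2 fold change of 1.42 (edgeR, adjusted p = 0.0776). The part of these markers and of the receptor background in the Lef1 counts was not tested.

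Axin2 (ENSMUSG00000000142), the feedback inhibitor used as a standard readout of canonical Wnt signalling, had a low level. Its levels were 5.21, 9.97 and 8.02 CPM in the wild type (libraries 1 to 3) and 8.43, 10.9, 11.0 and 12.5 CPM in Tnc-/- (libraries 1 to 4), from 97 to 239 counts per library. Wild-type library 1 was lowest and Tnc-/- library 4 highest, with overlap between the groups. Axin2 differed by 0.47 on the log2 scale (SE 0.32; edgeR, adjusted p = 0.289). Against wild-type library 1 alone it was 1.03 (SE 0.31; edgeR, adjusted p = 0.0722), and against libraries 2 and 3 alone 0.34 (SE 0.27; adjusted p = 0.275). Axin2 lay above 0 in all 16 alternative fits and was called in none.

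**Figure D2:**
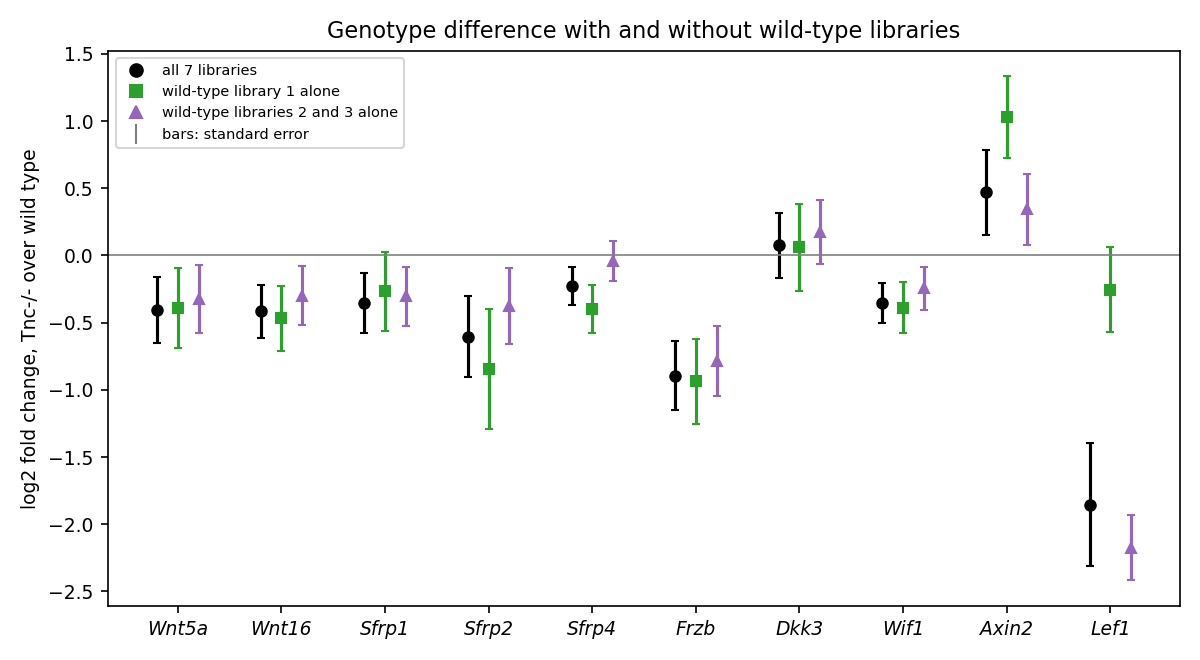
Log2 fold change of Tnc-/- over wild type for each of the 10 genes from edgeR, with standard errors as bars. Black circles use all 7 libraries, green squares wild-type library 1 alone and purple triangles wild-type libraries 2 and 3 alone against the 4 Tnc-/- libraries. Frzb stays between -0.94 and -0.79, whereas Lef1 moves from -0.25 to -2.18.

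Spread within the groups was also unequal. For Wnt5a, Wnt16, Sfrp1, Sfrp4, Frzb, Dkk3 and Wif1 the coefficient of variation was 3.28 to 10.6% in wild type and 13.1 to 35.7% in Tnc-/-. Only Axin2 (31.0 against 15.7%) and Lef1 (63.0 against 19.6%) varied more in wild type, and Sfrp2 was at 16.1 against 41.1%. The wild-type libraries that stood apart over all genes were close to library 1 in 8 of these genes. The log2 ratio of the mean of wild-type libraries 2 and 3 to library 1 lay between -0.37 and 0.13 in the 8 ligand and inhibitor genes, and was 0.73 in Axin2 and 1.95 in Lef1. Over all tested genes, 4417 of 17791 were at least 1 log2 unit higher in wild-type libraries 2 and 3 than in library 1. Within Tnc-/-, library 4 held the highest level of 8 of the 10 genes and library 1 the lowest of 6.

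The difference between genotypes, and that among the wild-type libraries, varied with the span of a gene, the distance from its first to its last base. Lef1 spans 113.9 kb in GENCODE M21, the longest of the 10, and the others span 7.996 kb (Sfrp2) to 66.7 kb (Wif1). Among the 1999 tested genes of 100 to 300 kb, 44.7% were called lower in Tnc-/- and the median log2 fold change was -0.69. Taken singly, wild-type libraries 1, 2 and 3 lay above Tnc-/- by a median of 0.10, 1.01 and 0.80 log2 units in that class. Among the 4872 genes of 30 to 100 kb, the class of Sfrp1, Frzb, Dkk3, Wif1 and Axin2, 21.8% were called lower and the median was -0.15. In the class of Wnt5a and Wnt16 (10 to 30 kb) the median was 0.15, and in that of Sfrp2 and Sfrp4 (up to 10 kb) it was 0.29. High ratios of wild-type libraries 2 and 3 to library 1 were also seen in some short pathway genes, such as Wnt10a (12.7 kb, log2 ratio 2.23). The fold changes of Frzb, Sfrp2, Sfrp4, Wnt5a, Wnt16, Sfrp1, Wif1 and Lef1 were each below the median of their class, and those of Axin2 and Dkk3 above it.

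**Figure D3:**
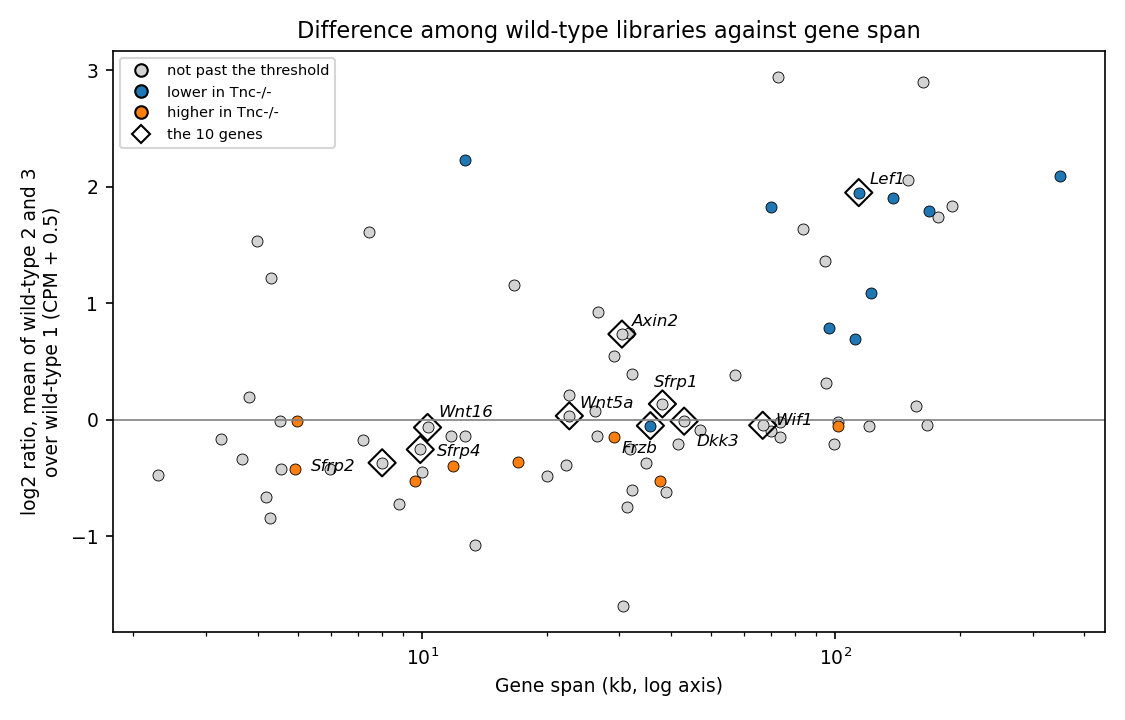
Log2 ratio of the mean of wild-type libraries 2 and 3 to wild-type library 1 (CPM plus a pseudocount of 0.5) against gene span in kb (log axis) for the 79 tested genes of the Wnt pathway. Blue and orange points were called lower and higher in Tnc-/-, grey points were not called, and diamonds mark the 10 genes. Lef1, at 1.95, lies with other long genes called lower, and Frzb is the blue point at -0.052.

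Levels per kb of exon, which allow genes to be compared with each other, put 5 of the 6 inhibitors well above the ligands, with Frzb nearer to them. In wild type Dkk3 was highest at 52.1 ± 2.52 CPM per kb (SD, n = 3), followed by Sfrp2 at 35.2 ± 5.65 and Wif1 at 32.1 ± 2.29, which overlapped within their SD. Sfrp4 at 18.2 ± 1.93 and Sfrp1 at 16.8 ± 1.36 CPM per kb also overlapped. Frzb followed at 8.61 ± 0.434 and Wnt16 at 4.35 ± 0.143, each clear of its neighbours. Lef1 at 2.47 ± 1.56 CPM per kb overlapped with Wnt5a at 2.29 ± 0.147 and with Axin2 at 1.404 ± 0.435. In Tnc-/- Dkk3 was again highest (54.9 ± 19.4 CPM per kb, SD, n = 4). The next were Wif1 (25.1 ± 3.97), Sfrp2 (23.1 ± 9.51), Sfrp4 (15.5 ± 2.03) and Sfrp1 (13.2 ± 4.03), each of which overlapped with the next. Frzb at 4.63 ± 1.65 CPM per kb came within the SD of Wnt16 at 3.27 ± 0.589, from which it was separate in wild type. Lef1 was last at 0.681 ± 0.133, below Axin2 at 1.94 ± 0.306 and Wnt5a at 1.73 ± 0.429.

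Markers of the cell types that could carry these genes were read in the same libraries. The summed level of 9 fibroblast markers was 31054 to 50013 CPM in wild type and 33136 to 57650 CPM in Tnc-/-, highest in Tnc-/- library 4. Col1a1, Col1a2 and Col3a1 carried that sum (18574, 19925 and 15633 CPM in Tnc-/- library 4), and 7 of the 9 markers, all but Pdgfra and Dpp4, were highest among the Tnc-/- libraries in library 4. The 15 cartilage markers summed to 1970 to 3343 CPM in wild type and 2008 to 4959 CPM in Tnc-/-, and all 14 that were detected in Tnc-/- were highest among the Tnc-/- libraries in library 4. The 10 Wnt genes were highest there in 8 cases, and the part of these markers in their levels was not tested. The 8 skeletal muscle markers summed to 22182 to 29017 CPM in wild type and 31570 to 47100 CPM in Tnc-/-, with no overlap. Of the tested genes of these lists, 1 of 14 cartilage and 2 of 8 muscle genes were called higher, and of 9 fibroblast genes Pi16 was called higher and Lum lower. The markers of osteoblasts and osteocytes, of the synovial lining and of lymphocytes overlapped between the groups in summed level (1136 to 1583 against 1271 to 1556, 1343 to 1494 against 1170 to 1646 and 216 to 228 against 221 to 319 CPM). The part of muscle and other tissue in the levels of the 10 genes was not tested.

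The rest of the pathway was read from 6 lists by role, holding 90 genes, of which 79 passed the filter on low counts. Apart from the 10 genes, 8 of 69 tested genes were called higher and 8 lower, with a median log2 fold change of -0.13, against 10.3 and 18.7% of all genes called. Higher calls stood among the cytoplasmic and nuclear transducers (6 of 17, none lower) and lower calls among the receptors (4 of 18, with 1 higher), the ligands (2 of 11) and the targets (2 of 10, with 1 higher). None of 7 genes for ligand processing and agonists and none of the 6 other secreted inhibitors was called. With wild-type library 1 alone, 1 of these calls was left, Bcl9l, though some lost calls kept their size: Lrp5 was at 0.60 (0.64 with all libraries) and Myc at 0.70 (0.71) on the log2 scale, with edgeR adjusted p of 0.0907 and 0.0759. Others shrank, Gsk3a from 0.89 to 0.55, Dvl1 from 0.81 to 0.55, Pygo2 from 0.65 to 0.38 and Csnk1e from 0.55 to 0.22.

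Among the transducers Bcl9l, a co-activator of beta-catenin, rose from 46.6, 37.8 and 46.0 CPM in wild type to 82.6, 80.4, 109 and 109 CPM in Tnc-/- (log2 fold change 1.13, SE 0.16; edgeR, adjusted p = 0.0067). Its groups were far apart, and against wild-type library 1 alone the difference was 1.02 (edgeR, adjusted p = 0.0274). With the receptor gene sum as a covariate it was 0.93 and not called (edgeR, adjusted p = 0.0992). Gsk3a, a kinase that marks beta-catenin for destruction, rose from 34.3 ± 8.44 to 63.8 ± 7.40 CPM (SD, n = 3 and 4; log2 fold change 0.89; edgeR, adjusted p = 0.0105). Dvl1, the Dishevelled adaptor that relays the receptor signal, rose from 77.2 ± 15.5 to 135 ± 18.8 CPM (0.81; edgeR, adjusted p = 0.0127). With the receptor gene sum as a covariate Gsk3a was at 0.42 and Dvl1 at 0.44 on the log2 scale, neither called (edgeR, adjusted p = 0.407 and 0.405). Lrp5, the co-receptor of canonical signalling, rose from 62.3 ± 2.75 to 97.1 ± 13.2 CPM (0.64; edgeR, adjusted p = 0.0111), and Myc, a growth-promoting target, from 18.4 ± 1.397 to 30.1 ± 3.67 CPM (0.71; edgeR, adjusted p = 0.0141). The log2 ratio of wild-type libraries 2 and 3 to library 1 was -0.052 for Lrp5 and -0.0083 for Myc, and -0.53 and -0.40 for Gsk3a and Dvl1.

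Most of the lower calls shared the split of wild-type libraries seen in Lef1. The targets Lgr5, a receptor for R-spondins, and Znrf3, a ligase that removes Frizzled receptors, were at 7.51, 32.8 and 26.1 CPM and at 12.9, 50.8 and 41.4 CPM in the wild type (libraries 1 to 3), against 4.59 to 7.27 and 7.95 to 12.9 CPM in Tnc-/-. Their log2 fold changes were -1.998 and -1.79 (edgeR, adjusted p = 0.0137 and 0.014), and -0.45 and -0.36 against wild-type library 1 alone. The receptor gene Fzd3 was at 4.94, 22.3 and 15.3 CPM in wild type and 2.12 to 3.70 CPM in Tnc-/- (-2.21; edgeR, adjusted p = 0.0135). The R-spondin receptor gene Lgr4 was at 26.2, 51.2 and 40.2 CPM in wild type and 17.3 to 23.9 CPM in Tnc-/- (-0.92; edgeR, adjusted p = 0.0196). The ligand Wnt10a was at 2.63, 20.4 and 7.96 CPM in wild type and 0.837 to 1.90 CPM in Tnc-/- (-2.94; edgeR, adjusted p = 0.0147), and Wnt5b at 25.3, 48.6 and 33.6 CPM and 19.6 to 22.9 CPM (-0.76; edgeR, adjusted p = 0.0311). In all 6 of these genes wild-type library 1 was the lowest of the wild type. Of the 10 pathway genes called lower, Frzb and Lef1 included, 7 were at least 1 log2 unit higher in wild-type libraries 2 and 3 than in library 1, and Frzb, at -0.052, was the only one of those 10 below 0. Of the 8 called higher, 0 were.

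**Figure D4:**
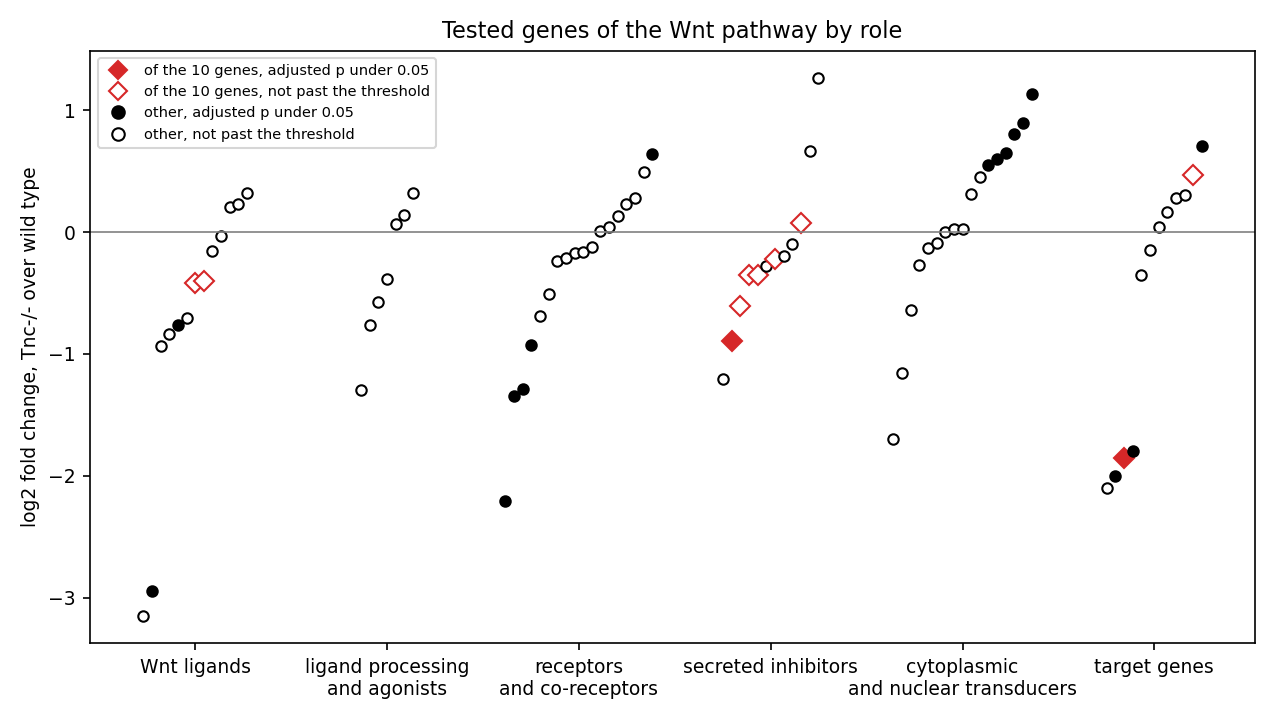
Log2 fold change of Tnc-/- over wild type (edgeR, all 7 libraries) for the 79 tested Wnt pathway genes, grouped by role and ordered within each role. Red diamonds are the 10 genes and black circles the others, and filled symbols passed an adjusted p of 0.05. Filled symbols above 0 stand mainly among the transducers (6 of 17), and those below 0 among receptors, ligands and targets, with Frzb the only one among the inhibitors.

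The genes nearest to Frzb and Lef1 in pattern over the 7 libraries were found by the root mean square difference of centred log2 CPM among 13098 genes averaging 5 CPM or more. For Frzb they were Zbed5 (difference 0.173), at 8.75 to 10.4 CPM in wild type and 4.07 to 6.07 CPM in Tnc-/-, and Rnd2 (0.203), at 9.10 to 12.7 and 6.13 to 9.78 CPM. Both shared the higher level in Tnc-/- library 4. For Lef1 they were E130308A19Rik (0.0953) and Crybg1 (0.0976). Crybg1 measured 9.77, 47.8 and 38.2 CPM in the wild type (libraries 1 to 3) and 6.70 to 10.4 CPM in Tnc-/-, the same split of the wild-type libraries as in Lef1.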

How the data were processed

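RNA was sequenced from whole shoulder joints of 7 mice. Each library has a file of deposited raw counts by gene. The submitters' processing notes name HISAT2 2.2.1, HTSeq 2.0.2, DESeq2 1.38.3, FastQC 0.11.9 and the build GRCm39. The annotation and strand setting are not given in the sources used here. Wild-type files listed 56980 identifiers and Tnc-/- files 56941, with 56854 in common. Rows naming no gene (30.1 to 32.7% of Tnc-/- reads) were left out.

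The test was that of edgeR 4.0.16, run in R 4.3.3 (filterByExpr, TMM, robust quasi-likelihood F test, genotype as the only term), with Benjamini-Hochberg adjustment over all 17791 genes tested. Fold changes are Tnc-/- over wild type, and a standard error is the size of the log2 fold change over the root of its F value. DESeq2 1.42.0, limma 3.58.1 and other settings were alternatives. Where stated, the receptor background was a covariate, as the log2 receptor gene sum. Gene spans and exon lengths are from GENCODE M21 (GRCm38) and are approximate for these counts. All 10 genes are named. Other pathway genes are named if called, at most 3 per role with the smallest p, and 2 genes nearest in pattern to each called gene. Other pathway genes and markers named were chosen after their values were seen. The genes and lists were chosen with earlier results of these data known. Precision is limited by 3 and 4 mice. Unmapped columns numbered 0.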

Additional observations from a re-analysis of the deposited data

Results flagged for a closer look

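Dixon's test looked for a lone high or low Tnc-/- library in each of the 10 genes. It found 1, and chance gives about 1 in 20. Frzb was at 22.9 CPM in Tnc-/- library 4 against 11.5, 12.1 and 13.4 CPM in libraries 1 to 3, a gap of 0.838 of the whole range, above Dixon's critical value for 4 samples. Without that library the log2 fold change of Frzb was -1.18 (SE 0.18; edgeR, adjusted p = 0.0318). Among the Tnc-/- libraries, library 4 was also highest for all 14 detected cartilage markers (Acan at 518 CPM against 188 to 229.5 CPM, Col2a1 at 1380 against 363 to 1047 CPM) and for 7 of 9 fibroblast markers. Per 1000 CPM of the summed fibroblast markers, a ratio chosen after the values were seen and set mostly by Col1a1, Col1a2 and Col3a1, Frzb was at 0.348, 0.33, 0.353 and 0.397 CPM in Tnc-/- and at 0.571, 0.845 and 0.737 CPM in wild type. Per 1000 CPM of the summed cartilage markers it was at 5.14, 6.02, 3.90 and 4.62 CPM in Tnc-/- and at 8.54, 13.3 and 11.99 CPM in wild type. The part of these markers in the Frzb level was not tested.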

How the results depend on the processing

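Of the 10 genes, Wnt5a, Wnt16, Sfrp1, Sfrp2, Sfrp4, Frzb, Wif1 and Axin2 kept their direction in all 16 alternatives, and Dkk3 and Lef1 did not. Dkk3 turned to -0.027 with the background covariate and to -0.175 with library totals. With the replicate block, which leaves out Tnc-/- library 4, it was -0.21, and leaving out that library alone gave -0.20. Dkk3 ranged from -0.20 to 0.17 when a library was left out. Lef1 turned to 0.40 with the background covariate. No gene of the 10 was called higher in any alternative (0 in edgeR, limma voom and DESeq2). At an unadjusted p under 0.05, 0 of the 10 were higher with all libraries in edgeR and 1 with the background covariate. At that threshold the genes lower were 3 with all libraries, 5 with DESeq2, 4 with limma voom and 3 with the background covariate. Over all genes tested, in either direction, 7533 of 17791 passed it with all libraries and 7763 of 17784 with DESeq2. With limma voom 5753 of 17791 passed it, and with the background covariate 3306 of 17791. Genes of the 10 called lower numbered 2 with all libraries, 0 to 2 when a library was left out, 0 with DESeq2 and Bonferroni adjustment, 0 with limma voom, 0 with the background covariate, 0 with wild-type library 1 alone and 5 with library totals, which added Wnt16, Sfrp4 and Wif1 and moved the median over all genes to -0.24. Pathway genes called higher and lower were 8 and 10 with all libraries, 1 and 0 with DESeq2 and Bonferroni adjustment, 9 and 17 with DESeq2, 1 and 0 with the background covariate (Tcf7l1, not called with all libraries), 5 and 22 with library totals, 4 and 0 with limma voom, and 1 and 0 with wild-type library 1 alone; leaving out a library gave 3 to 15 and 0 to 22. All genes called higher and lower were 1830 and 3329 (64.5% lower), 279 and 1374 with DESeq2 and Bonferroni adjustment, 207 and 231 with the background covariate, 951 and 4541 with library totals (82.7% lower), 728 and 276 with limma voom, 469 and 356 with wild-type library 1 alone, and 5539 lower with no filter on low counts. Leaving out a library gave 592 to 5335 higher and 1637 to 8778 lower, the highest without wild-type library 1. The causes were not tested. Replicate numbers are shared by the genotypes, and the deviations of same-numbered libraries correlated at -0.0053, 0.10 and -0.0055. Differently numbered pairs lay between -0.10 and 0.092. With so few libraries, these values cannot tell whether same-numbered libraries share more than a number. With the replicate block 768 genes were higher and 945 lower, 1 and 2 of them in the pathway and 0 and 1 among the 10 (Frzb). Counts of 96 or more per library stand behind each value of the 10 genes, and which of depth and mouse number limits them more was not tested.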

Other observations

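Among secreted inhibitors outside the 10 genes, 2 were higher on average in Tnc-/- without passing the threshold. These genes, and Wls and Ctnnb1, were picked after their values were seen. Sfrp5, the remaining secreted Frizzled-related gene, measured 5.53, 1.26 and 4.43 CPM in the wild type (libraries 1 to 3) and 6.77, 8.91, 10.1 and 10.4 CPM in Tnc-/- (libraries 1 to 4), a log2 fold change of 1.27 (edgeR, adjusted p = 0.0912). DESeq2 called Sfrp5. In edgeR it was at 0.70 against wild-type library 1 alone, 0.26 with the receptor gene sum as a covariate and 1.74 without wild-type library 1 (adjusted p = 0.203, 0.874 and 0.0043). Its groups did not overlap, as in 17.7% of all tested genes in that direction. Sost, the sclerostin gene of osteocytes, was at 16.6, 11.4 and 13.2 CPM in wild type and at 16.9, 16.3, 31.1 and 22.7 CPM in Tnc-/- (edgeR, adjusted p = 0.0981), with overlap. Its log2 fold change was 0.66 with all libraries, 0.38 against wild-type library 1 alone and 0.91 without it (edgeR, adjusted p = 0.0099 for the last). Wls, which carries Wnt ligands to the cell surface, was at 171, 133.5 and 162 CPM in wild type and at 107, 105.5, 117.5 and 147 CPM in Tnc-/- (edgeR, adjusted p = 0.103). Ctnnb1, which encodes beta-catenin, had the same mean in both groups (102 CPM) and was at 140.2 CPM in wild-type library 1 against 72.4 and 94.4 CPM in libraries 2 and 3. Its log2 fold change was -0.46 against library 1 alone and 0.39 without it (edgeR, adjusted p = 0.102 and 0.0334).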
